A study of Drosophila melanogaster with 8 samples.

Results

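The Wingless pathway was examined through 8 genes, taken by symbol from the 13922 protein-coding genes that RefSeq places on the 6 chromosome arms of Drosophila melanogaster Release 6. They were wg, fz, fz2, arr, Axn, arm, pan and nkd. Each summit of a peak list that lay in the body of one of these genes, or within 5 kb of it, was assigned to the gene. The lists came from chromatin immunoprecipitation with sequencing (ChIP-seq) of the transcription factor Ribbon (Rib), a nuclear protein with a BTB domain, fused to green fluorescent protein (GFP). Chromatin came from whole embryos of stage 11 to 15 by the sample labels, or 11 to 16 by the protocol. The fusion was made from a UAS transgene switched on by btl-GAL4 or by trh-GAL4, drivers named after genes of the embryonic airway, so the values describe a driven fusion and not native Rib. The protocol names UAS-rib-GFP, whereas the titles and genotypes name UAS-GFP. The protocol was followed here, and if the titles were right, no value below would measure Rib.

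An antibody raised in goat against GFP was used on 3 btl samples and 2 trh samples, with 3 inputs beside them. The btl list joined btl replicates 1 and 2, and the trh list joined trh replicates 1 and 2, each filtered at an irreproducible discovery rate of 0.1. The third list held btl replicate 3 alone, which had another library kit and another sequencing centre, so replicate 3 and its batch cannot be told apart. On the 6 arms the lists held 8693, 3210 and 17149 summits, so numbers of summits are compared within a list. A further list, called highest confidence, held 2198 regions, all identical to the intersections of the other 3 lists, so a region in it is not a further measurement. The btl and trh lists carry no values of single replicates. Depth cannot be read from these files, and the Wilson 95% intervals given for shares reflect counting error alone. They treat summits as independent, although replicate 3 often has several in the same region, so its intervals on summits are too narrow. Since chromatin was from whole embryos, fewer bound cells and weaker occupancy in each cell cannot be told apart. Embryos without a GFP fusion were not analysed here.

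Wingless (Wg) is a secreted Wnt ligand. It binds a Frizzled receptor and the co-receptor Arrow, which halts a destruction complex built on the scaffold Axin. Armadillo, the fly beta-catenin, then builds up and enters the nucleus, where it works with the DNA-binding protein Pangolin on target genes, among them inhibitors that feed back on the pathway. In the Drosophila embryo the pathway sets segment polarity, and in the airway it is known for its part in forming the main longitudinal tube, the dorsal trunk.

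The receptor genes fz and fz2 and the inhibitor gene nkd held most summits of the 8 genes, while wg, Axn, arm and pan held at most 2 btl summits, 1 trh summit and 4 replicate 3 summits each. At the members lay 65 btl summits, 17 trh summits and 124 summits of replicate 3, the last in 80 regions. Of these, fz, fz2 and nkd held 56 of 65 in the btl list (86.2%, Wilson 95% interval 75.7 to 92.5%), 15 of 17 in the trh list (88.2%, interval 65.7 to 96.7%) and 101 of 124 in replicate 3 (81.5%, interval 73.7 to 87.3%). In the trh list fz alone held 11 of these 15. The genes fz, fz2 and nkd were singled out after their counts were seen, which favours high shares. The shares are also not corrected for gene length. The genes fz, fz2 and nkd span 94.3, 94.4 and 41.7 kb, against 44.9 kb at pan and 29.6 kb or less at the others. More summits would thus fall at fz and fz2 even at equal density, and the part of length in the shares was not tested. Per 10 kb of window the members held 1.56 btl summits, 0.409 trh summits and 2.98 replicate 3 summits. The same densities over all protein-coding genes were 0.786, 0.279 and 1.55. In the trh list fz alone stood clearly above that level, with 1.05 per 10 kb, against 0.287 at fz2 and 0.193 at nkd. In replicate 3 nkd had 5.80 per 10 kb, fz2 3.93, arr 3.54 and fz 2.88.

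A summit was found at 6 of the 8 genes with btl, where 60.9% of all protein-coding genes had one. The trh list had 5 of 8 against 29.1%, replicate 3 had 8 of 8 against 65.7%, and 5 of 8 had a highest-confidence region against 21.3%. The genes with a summit in the body or within 5 kb in all 3 lists were fz, fz2, arr, pan and nkd, 5 of 8 against 25.0%. Every member had a summit in at least 1 list, as did 73.2% of all genes. When only the gene body was counted, the trh count was 3 of 8 (fz, fz2 and nkd) against 9.97%, since the trh summits assigned to arr and pan lay in neighbouring genes. The other body counts were 6 of 8 against 21.7% in the btl list, 7 of 8 against 28.3% in replicate 3 and 3 of 8 against 8.53% among highest-confidence regions. No test was run on these counts, since a list of 8 chosen genes is no sample of genes.

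Long genes have a higher background, and the members with a trh summit in the gene or within 5 kb were the long ones. Among genes of 50 kb or more, the class of fz and fz2, 76.2% had a btl summit, 62.9% a trh summit, 79.2% a replicate 3 summit and 52.8% a highest-confidence region. For genes of 15 to 50 kb, the class of arr, pan and nkd, these shares were 80.3%, 57.1%, 81.4% and 43.7%. Under 15 kb, the class of wg, Axn and arm, they were 58.9%, 25.9%, 64.0% and 18.7%. All 5 members of the longer classes had a summit in the gene or within 5 kb in each of the 3 lists. None of the 3 short ones did. Counting the gene body alone, a summit in all 3 lists was left at fz, fz2 and nkd. The trh summits of arr and pan lay in neighbouring genes. The share of all genes with a summit in all 3 lists was not computed by length class. The length classes were set after the lengths of the members were known.

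**Figure D1:**
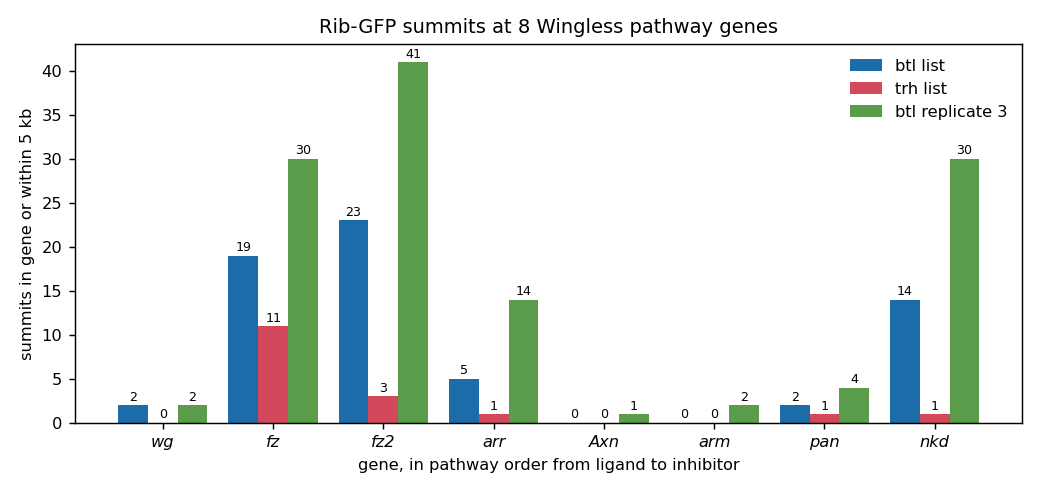
Number of summits in the gene body or within 5 kb (vertical axis) for each of the 8 genes, in the btl list, the trh list and btl replicate 3. The bars of fz, fz2 and nkd reach 19, 23 and 14 in the btl list, and Axn and arm have summits in replicate 3 alone.

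wg encodes the ligand itself. The gene (Dmel_CG4889, chromosome 2L, 7307159 to 7316265) carried 2 btl summits, no trh summit and 2 replicate 3 summits. The btl summits lay at 7307924, with a fold enrichment of 2.22 (rank 6928 of 8693), and at 7311684, with 2.53 (rank 5641). Both ranked below the middle of the btl list, whose median was 2.87. The weaker one was found again in replicate 3 at 7307887, with a fold enrichment of 1.83 (rank 14004 of 17149). The strongest replicate 3 summit lay 229 bp outside the lower-coordinate end of wg, at 7306930, with 3.31 (rank 4116), and no btl region overlapped it. No region at wg was in the highest-confidence list. Fold enrichment is the authors' linear ratio over background at a summit and is compared only within a list.

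**Figure D2:**
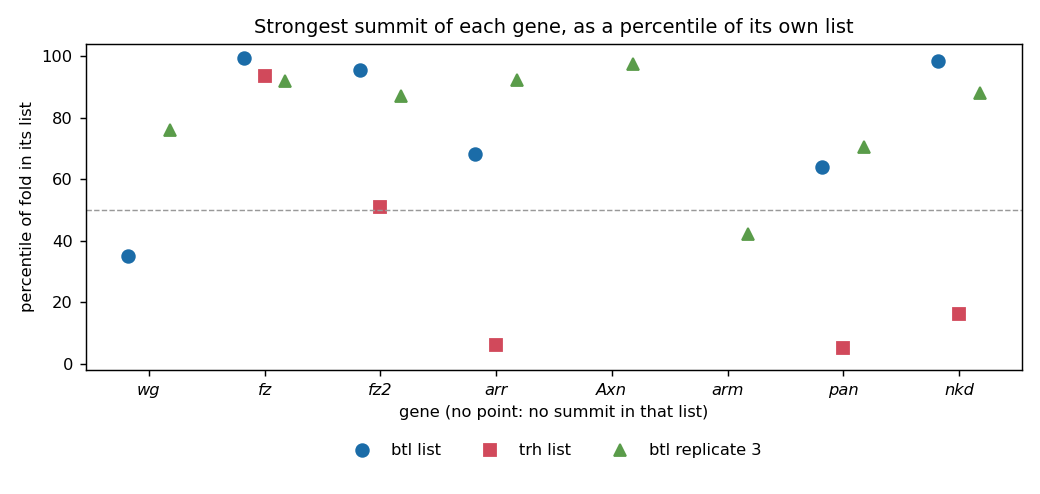
Fold enrichment of the strongest summit of each gene, given as the percentile of its own list (vertical axis), for the btl list, the trh list and btl replicate 3, with a dashed line at 50. In the btl list fz, nkd and fz2 stand at 99.6, 98.4 and 95.7 and wg at 35.1, and in the trh list fz stands at 93.5 and the next gene, fz2, at 50.9.

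fz encodes Frizzled, a receptor for Wg that also acts in planar cell polarity. It had the strongest btl summits and the most trh summits of the 8 genes. The gene (Dmel_CG17697, chromosome 3L, 14274343 to 14368639) spans 94.3 kb and held 19 btl summits, 11 trh summits and 30 replicate 3 summits. Over all protein-coding genes, its btl count ranked 12 and its trh count ranked 9. Its 10 highest-confidence regions also ranked 9, and 10 genes had at least as many. Genes of 50 kb or more had a median of 5 btl summits, 1 trh summit and 7 replicate 3 summits, so fz lay above the median of long genes in each list. Its btl and trh counts were above the 90th percentile of that class, 15.4 and 7, and its replicate 3 count was below it, 31.4.

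The strongest pair of btl sites at fz lay near the middle of the gene. The summit at 14321266 had a fold enrichment of 8.35 (rank 36 of 8693) and the one at 14319627 had 8.34 (rank 37), 46.9 and 45.3 kb from the lower-coordinate end. Both were found with trh, at 14321281 with a fold enrichment of 2.04 (rank 1925 of 3210) and at 14319669 with 2.41 (rank 1036). Replicate 3 held both in a single region of 2528 bp, with fold enrichments of 2.96 (rank 5327) and 4.72 (rank 1378) at the nearest summits. The latter was the strongest replicate 3 summit at fz. This pair thus led the gene in the btl list, while in the trh list it stood at percentiles of 40.1 and 67.8.

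Other trh sites at fz were stronger. The strongest trh summit of all members lay at 14359714, with a fold enrichment of 3.21 (rank 211, percentile 93.5). Its btl partner, at 14359732 and 8.91 kb inside the higher-coordinate end, had 5.07 (rank 767), and the replicate 3 summit at 14359672 had 1.89 (rank 13236). A site with its btl summit 2022 bp outside the lower-coordinate end had 5.47 with btl (rank 556), 2.92 with trh (rank 375) and 3.27 in replicate 3 (rank 4244). The site that ranked high in one list was therefore not always high in the next.

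One site lay at a gene end of fz. The btl summit at 14274267 and the trh summit at 14274270 were 76 and 73 bp outside the lower-coordinate end and had fold enrichments of 2.47 (rank 5865) and 1.53 (rank 3115). The nearest replicate 3 summit, at 14274446, lay 103 bp inside the gene with 3.40 (rank 3851). In the btl and trh lists this gene-end site had the lowest fold enrichment of the gene, but not the lowest -log10 q, by which it stood at percentiles of 72.8 and 31.7. Summits were not spread evenly: no list had a summit between 61.3 and 80.0 kb from the lower-coordinate end, a stretch that lies inside the largest gap of the btl list, 19.1 kb, and of replicate 3, 18.9 kb.

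fz2 encodes Frizzled 2, the second receptor for Wg. It held more btl summits than fz on a gene of nearly the same length, but fewer trh summits. The gene (Dmel_CG9739, chromosome 3L, 19140975 to 19235373) spans 94.4 kb and carried 23 btl summits, 3 trh summits and 41 replicate 3 summits. Its btl count ranked 4 among all protein-coding genes and its replicate 3 count ranked 14. Of its btl regions, 3 of 23 overlapped a trh region (13.0%, Wilson 95% interval 4.54 to 32.1%), whereas at fz it was 9 of 19 (47.4%, interval 27.3 to 68.3%). Over the whole btl list the share was 25.2%, inside the interval of fz2. The intervals of fz and fz2 overlap, and the difference between the genes was not tested. Replicate 3 overlapped most btl regions of both genes, 20 of 23 at fz2 (87.0%, interval 67.9 to 95.5%) and 16 of 19 at fz (84.2%, interval 62.4 to 94.5%). It also overlapped 80.4% of the whole btl list, a share inside both intervals.

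The btl summits of fz2 were of middling fold enrichment. Their median fold enrichment was 3.12, against 4.05 at fz, and 1 of them was in the strongest 10% of the list, against 6 at fz. The strongest, at 19201198, had 5.89 (rank 375) and lay 60.2 kb from the lower-coordinate end. It was found in replicate 3 at 19201267 with 2.89 (rank 5645) and not with trh. The strongest btl site of fz2 thus had no overlapping region in the trh list, the shortest of the lists. Absence from it does not show that the site was unbound with trh.

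The 3 shared sites of fz2 lay inside the gene. A pair of them stood 29.7 and 30.9 kb from the lower-coordinate end, with btl fold enrichments of 2.75 and 2.54 (ranks 4769 and 5559) and trh fold enrichments of 1.66 and 1.48 (ranks 2886 and 3157 of 3210). Replicate 3 covered both with its widest region at any member, 4233 bp with 7 summits, and the highest of these was 4.13 (rank 2205), the strongest replicate 3 summit at fz2. The third site, 51.4 kb from that end, had a btl fold enrichment of 4.47 (rank 1203), a trh fold enrichment of 2.17 (rank 1577) and 2.37 in replicate 3 (rank 8641). By fold enrichment the pair thus ranked low with btl and trh and high in replicate 3. By -log10 q the btl summits ranked higher, at percentiles of 80.8 and 79.4, and the trh summits stood at 59.1 and 6.51. No btl or trh summit lay within 500 bp of either end of fz2, and the btl summit nearest to one was 535 bp outside, at 19140440, with 3.12 (rank 3515).

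arr encodes Arrow, the co-receptor of the LRP family. The gene (Dmel_CG5912, chromosome 2R, 13453640 to 13483229) carried 5 btl summits, 1 trh summit and 14 replicate 3 summits. Inside the gene the btl list had summits with fold enrichments of 3.40 (rank 2769), 3.16 (rank 3391) and 3.32 (rank 2974), at 13470352, 13472272 and 13475896, and the last 2 of these lay in regions that overlapped replicate 3. One more btl summit in the gene, 74 bp inside the higher-coordinate end, had 1.57 (rank 8583). Replicate 3 was strongest near that same end, at 13482641, 588 bp inside it, with 4.76 (rank 1325), so the order of the sites differed between the btl samples. The gene cbc starts at 13483512, next to this end of arr.

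The site that arr shared between all 3 lists was not in arr. Its btl summit, at 13449407, lay 4233 bp outside the lower-coordinate end and inside cnn, a gene for a centrosomal protein. Its fold enrichments were 1.78 with btl (rank 8253), 1.60 with trh (rank 3014) and 2.67 in replicate 3 (rank 6805). All trh signal counted for arr came from this site.

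Axn encodes Axin, the scaffold of the destruction complex, and had no btl and no trh summit. The gene (Dmel_CG7926, chromosome 3R, 30022842 to 30035311) held 1 replicate 3 summit in its window, at 30022004, with a fold enrichment of 6.11 (rank 441 of 17149, percentile 97.4). This was the strongest replicate 3 summit of all members. It lay 838 bp outside the lower-coordinate end, inside Mgat2 and 217 bp from an end of it, in a region of 1345 bp that also covers the ribosomal protein gene RpS28a. No btl or trh region overlapped it, and the body of Axn held no summit in any list.

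arm encodes Armadillo, which besides its part in the nucleus is a component of adherens junctions. The gene (Dmel_CG11579, chromosome X, 1891401 to 1900646) had no btl and no trh summit and 2 replicate 3 summits. One, at 1899729 inside the gene, had a fold enrichment of 2.21 (rank 9895), and the other, at 1890151, had 1.81 (rank 14173) and lay 105 bp from the nearer end of mRpL16, a mitochondrial ribosomal protein gene that overlaps the lower-coordinate end of arm. Both were below the replicate 3 median of 2.39.

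pan encodes Pangolin, the TCF protein that binds DNA for the pathway. The gene (Dmel_CG34403, chromosome 4, 69326 to 114270) spans 44.9 kb. Every summit counted for it lay beyond its lower-coordinate end or at most 965 bp inside that end. A btl summit 183 bp inside that end, at 69509, had a fold enrichment of 3.08 (rank 3661), and replicate 3 had summits at 69552 with 3.03 (rank 5076), at 70291 with 2.10 (rank 10950) and at 68886 with 1.91 (rank 13100). No trh summit lay there. The btl sites and replicate 3 thus met at this end of pan, and beyond 965 bp from it no list had a summit in the gene.

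The site near pan that all 3 lists shared lay in RpS3A, a gene of the small ribosomal subunit. Its btl summit, at 67067, was 140 bp from an end of RpS3A and 2259 bp outside pan, with a fold enrichment of 3.27 (rank 3118). The trh summit at 67141 had 1.58 (rank 3042) and the replicate 3 summit at 66949 had 2.14 (rank 10558). Like the shared site near arr, it was counted for the member by distance alone.

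**Figure D3:**
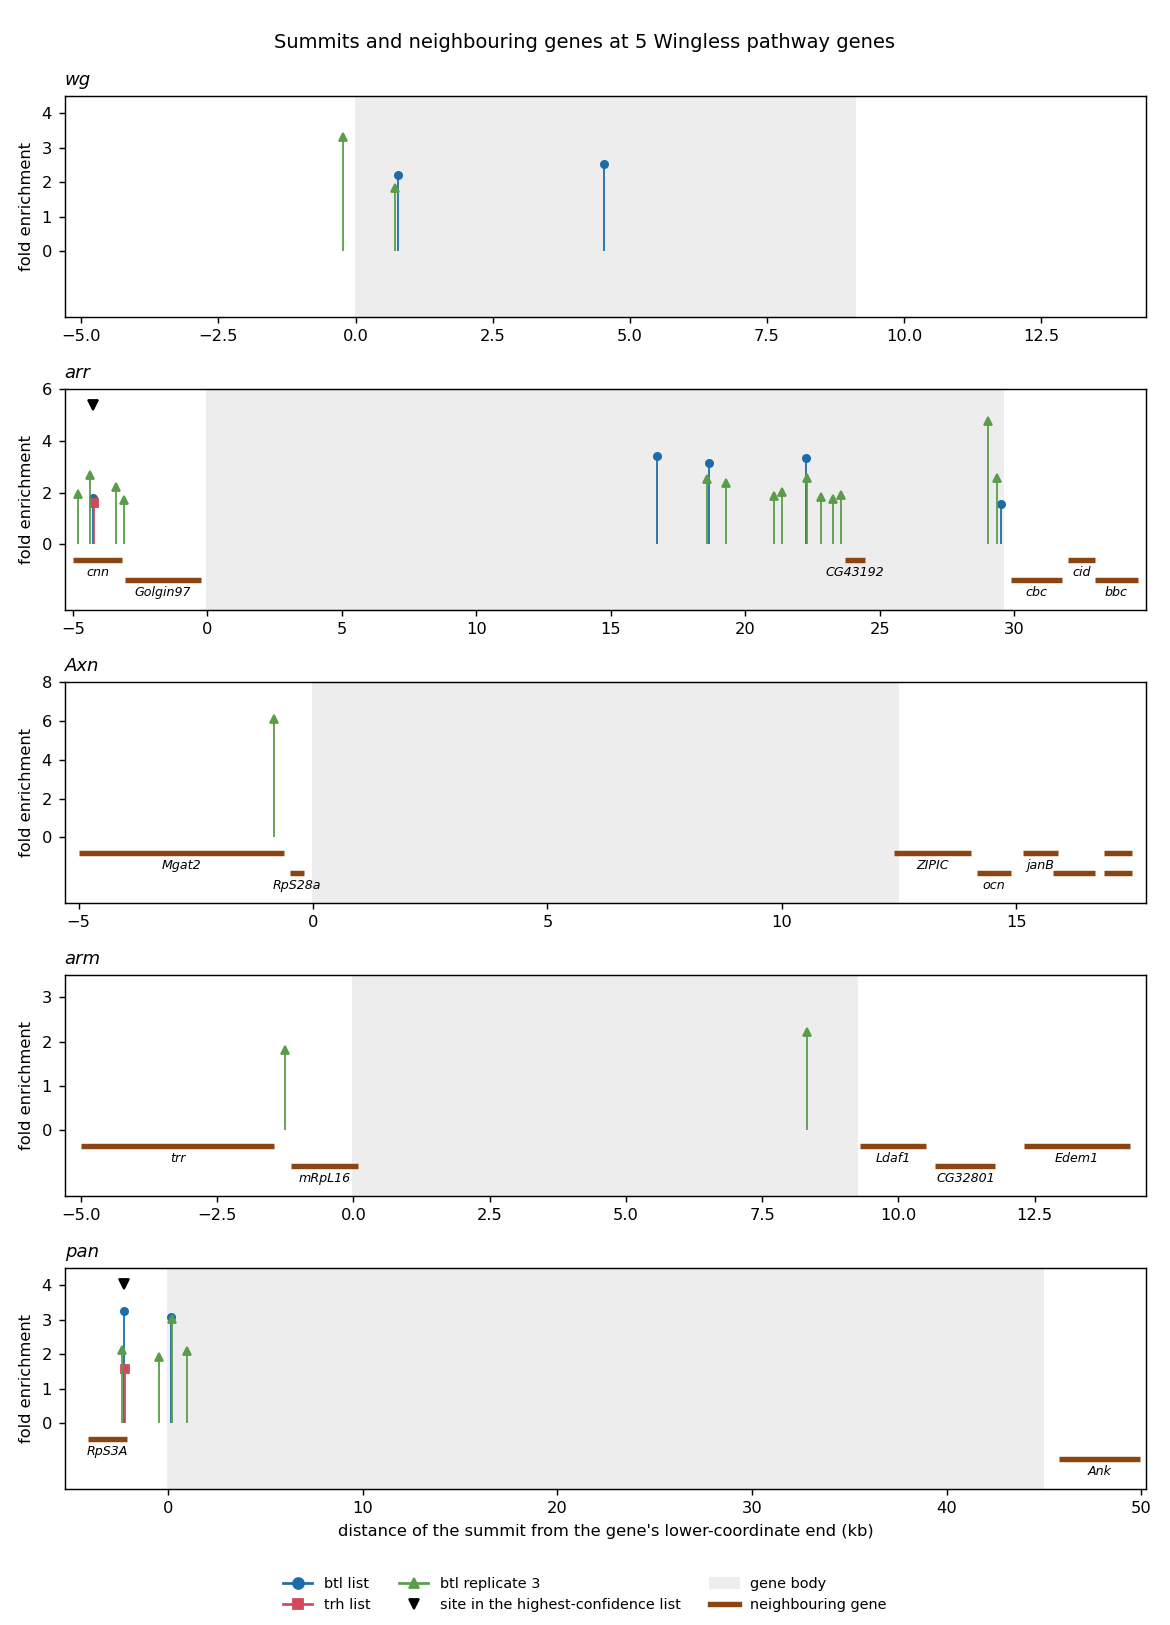
Fold enrichment (vertical axis, linear) of each summit against its distance in kb from the gene's lower-coordinate end (horizontal axis) at wg, arr, Axn, arm and pan, with the gene body shaded, neighbouring genes as brown bars and highest-confidence sites as black triangles at the btl summit. Both triangles, at arr and at pan, stand over a neighbouring gene, cnn and RpS3A, and Axn and arm show replicate 3 summits only.

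nkd encodes Naked cuticle, an inhibitor that binds Dishevelled and is itself a known target of Wg signalling in Drosophila. Per length it was the most densely covered member in the btl list, with 2.71 summits per 10 kb, ahead of both receptor genes. The gene (Dmel_CG11614, chromosome 3L, 19003741 to 19045449) held 14 btl summits, 1 trh summit and 30 replicate 3 summits in its window. Of the 14 btl summits 11 lay in the gene body and 3 outside it. The summit at 19000632 was 24 bp from an end of CG3808, and the others outside the body were nearer to Acp76A than to nkd. Genes of 15 to 50 kb had a median of 2 btl summits, 1 trh summit and 4 replicate 3 summits, and 17 was the highest btl count among them. The btl and replicate 3 counts of nkd were thus far above the median of its class, and its trh count was at the median.

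A single site of nkd stood out. Its btl summit, at 19026798, had a fold enrichment of 7.06 (rank 144, percentile 98.4) and lay 23.1 kb from the lower-coordinate end. The trh summit at 19026692 was the only one of the gene, with 1.76 (rank 2691 of 3210), and the replicate 3 summit at 19026684, with 4.21 (rank 2081), was the strongest of the gene there too. The remaining 13 btl regions had fold enrichments of 1.92 to 3.62, with a median of 2.61. Of all 14 btl regions, 13 were found again in replicate 3 (92.9%, interval 68.5 to 98.7%) and 1 in the trh list (7.14%, interval 1.27 to 31.5%). Over the whole btl list these shares were 80.4% and 25.2%, both inside the intervals at nkd. Of the 21 replicate 3 regions at nkd, 11 overlapped a btl region (52.4%, interval 32.4 to 71.7%), against 62.3% of the whole replicate 3 list. At nkd 24 of the 30 replicate 3 summits were below the middle of that list. No list had a summit in the first 9.97 kb of the gene from its lower-coordinate end. At the other end a btl summit lay 43 bp inside the gene, at 19045406, with 2.84 (rank 4436).

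Few summits lay close to the limit of 5 kb. The farthest one kept was a replicate 3 summit 4804 bp outside arr, with 1.94 (rank 12720), followed by a btl summit 4565 bp outside nkd, with 1.92 (rank 7913). The nearest one left out was a trh summit 5113 bp outside nkd, with 2.15 (rank 1615). At wg the nearest summit left out was a btl summit 7940 bp outside, with 2.71 (rank 4908).

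**Figure D4:**
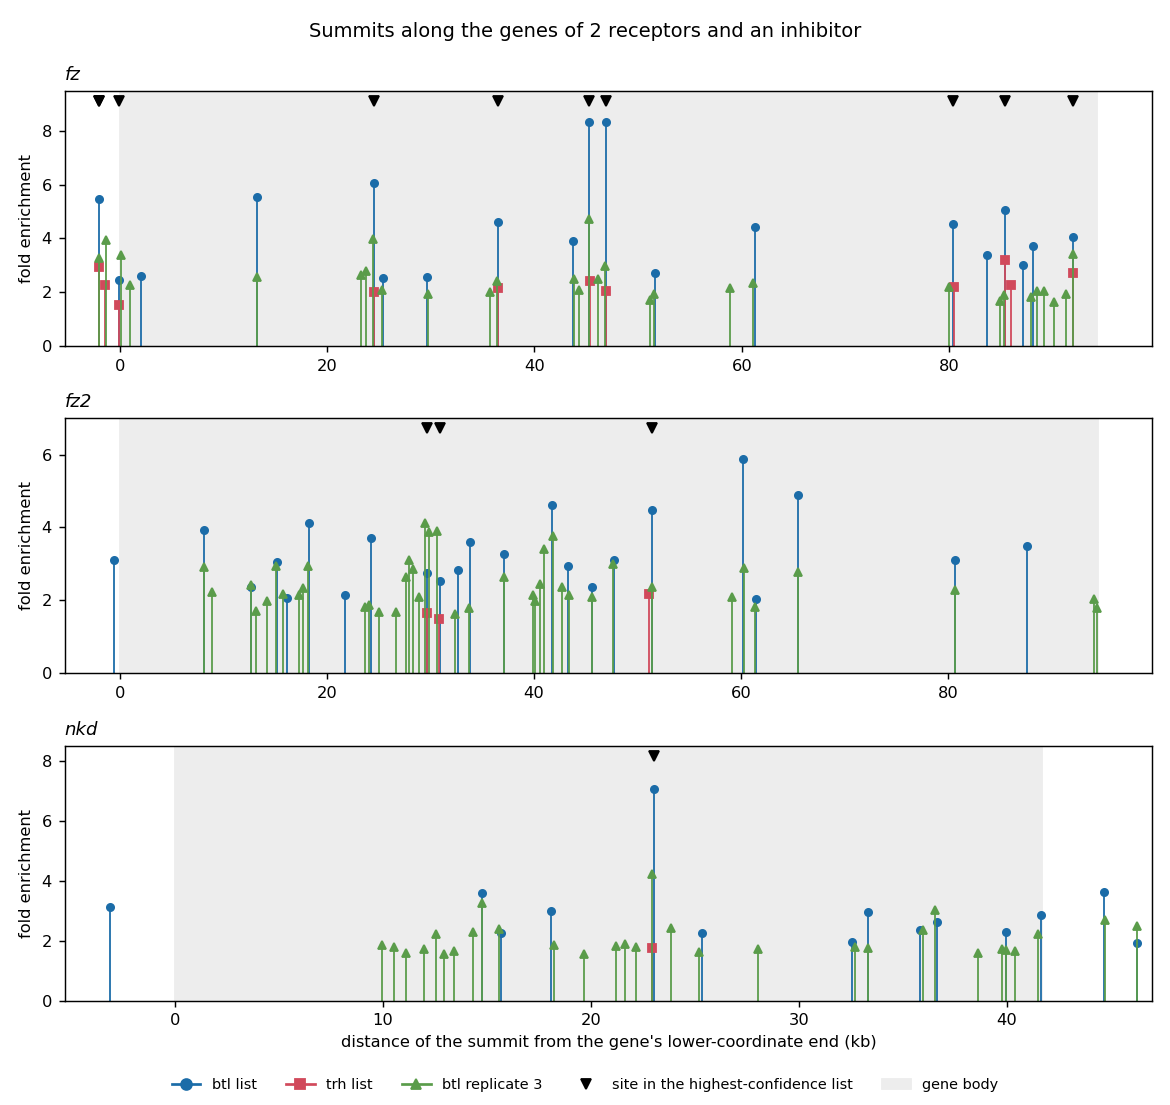
Fold enrichment (vertical axis, linear) of each summit against its distance in kb from the gene's lower-coordinate end (horizontal axis) at fz, fz2 and nkd, for the btl list, the trh list and btl replicate 3, with the gene body shaded and highest-confidence sites as black triangles at the btl summit. The 10 sites of fz show as 9 triangles because 1 btl region holds 2 of them, and fz2 and nkd have 3 and 1.

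Most member summits lay inside the member, away from its ends. Within 500 bp of an end of the member lay 4 of 65 btl summits (6.15%, interval 2.42 to 14.8%), 1 of 17 trh summits (5.88%, interval 1.05 to 27.0%) and 8 of 124 replicate 3 summits (6.45%, interval 3.31 to 12.2%). Over all protein-coding genes, with each summit counted for every gene in reach, the shares were 21.4%, 18.5% and 17.5%. Counting the ends of any protein-coding gene, neighbours included, the member shares were 6 of 65 (9.23%, upper bound of the interval 18.7%), 2 of 17 (11.8%, interval 3.29 to 34.3%) and 15 of 124 (12.1%, interval 7.47 to 19.0%), and those of the whole lists 31.9%, 29.3% and 26.8%. The added summits lay at RpS3A, CG3808, cnn, Golgin97, CG43192, Mgat2 and mRpL16. Members are longer than most genes, and the part of length in these differences was not tested. Summits inside the member and farther than 500 bp from its ends made up 83.1% of btl summits, 70.6% of trh summits and 84.7% of replicate 3 summits. RefSeq gene bounds without strand or exons were used, so these sites were not divided into exons and introns and neither end was called the promoter.

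Where the drivers shared a member region, most btl and trh summits lay close together. The regions were chosen by overlap, which itself favours short distances. The same distances were not measured over the whole btl list, so they are no trait of the members. In the 15 btl regions at members that overlapped a trh region, the trh summit nearest to the btl summit was 3 to 285 bp from it, with a median of 19.0 bp, and 11 of the 15 distances were within 50 bp. The nearest replicate 3 summit was 4 to 409 bp away, with a median of 106 bp, and 6 of 15 were within 50 bp. The distance of 285 bp was at the third shared site of fz2. One btl region outside fz held a second trh summit, at 14272940 with 2.25 (rank 1376), 619 bp from the btl summit, which these distances leave out.

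By an overlap of at least 1 bp, the btl regions at members recurred in the other lists about as often as btl regions in general. Of the 65, a trh region overlapped 15 (23.1%, interval 14.5 to 34.6%), against 25.2% of the whole btl list. Replicate 3 overlapped 56 (86.2%, interval 75.7 to 92.5%), against 80.4%. Seen from the trh list, 16 of 17 member regions overlapped a btl region (94.1%, interval 73.0 to 99.0%), against 75.2%. The same 16 overlapped replicate 3, against 80.5% of the whole trh list. These shares depend on the overlap rule: with a reciprocal overlap of 50%, 4 of 17 overlapped a btl region (23.5%, whole list 32.6%) and 3 replicate 3 (17.6%, whole list 16.5%). By that rule the btl share with trh was 4 of 65 (6.15%), and 1045 of 8693 in the whole list. The trh member region outside those 16 had its summit at fz, at 14360337, with 2.26 (rank 1344). From replicate 3, 59 of 80 regions overlapped a btl region (73.8%, interval 63.2 to 82.1%), against 62.3%, and 13 a trh region (16.2%, interval 9.75 to 25.8%), against 20.7%.

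**Figure D5:**
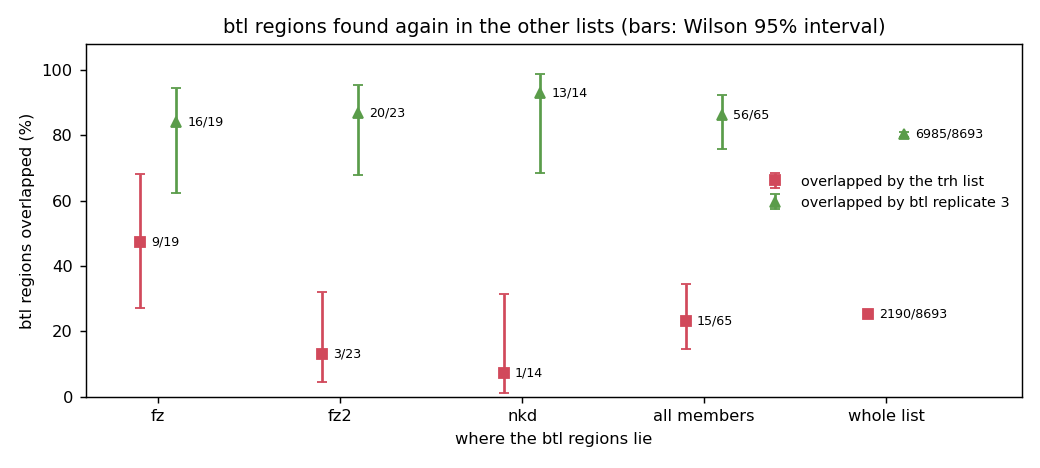
Percentage of btl regions (vertical axis) that overlapped a region of the trh list or of btl replicate 3 by at least 1 bp, at fz, fz2 and nkd, over all 8 members and over the whole btl list, with Wilson 95% intervals as bars and counts beside the points. The trh share runs from 47.4% at fz to 7.14% at nkd, while the replicate 3 share is 84.2% to 92.9% at these genes.

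At fz the btl sites also found with trh had the higher median, and at fz2 they did not. At fz the 9 btl regions with a trh region had a median fold enrichment of 5.07, ranging from 2.47 to 8.35, and the 10 without had a median of 3.20, ranging from 2.53 to 5.55. The shared site of nkd was the strongest btl site of that gene. At fz2 the order was the other way, with medians of 2.75 over 3 regions and 3.12 over 20. The ranges overlapped at both receptors. The rank correlation of fold enrichment (Spearman's rho) across the 15 member regions shared by btl and trh came to 0.56, against 0.40 over the 2190 such regions of the whole btl list. Between btl and replicate 3 it was 0.32 over 56 member regions and 0.02 over 6985 regions. Each btl region was paired with the highest fold enrichment of the regions overlapping it, not with the nearest summit. Neighbouring btl regions in a wide replicate 3 region, as in the middle of fz, thus shared a value. These are descriptions across sites that share their samples, without a test.

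The other genes of the pathway were read from a list of 41 genes chosen by role. In the btl list 30 of them had a summit in the gene or within 5 kb (73.2%, background 60.9%), in the trh list 16 (39.0%, background 29.1%) and in replicate 3 33 (80.5%, background 65.7%). A highest-confidence region was found at 13 (31.7%, background 21.3%). The trh summits were unevenly spread over the roles. None of the 6 other Wnt ligand genes and none of the 7 other receptor and co-receptor genes had a trh summit, while 4 and 5 of them had a btl summit. All 8 genes of the cytoplasmic relay had a btl summit and a replicate 3 summit, and 5 had a trh summit. Of the 9 nuclear cofactor genes 8 had a btl summit and 6 a trh summit, of the 5 genes for ligand processing and spreading 3 and 4, and of the 6 genes known as Wg targets 2 and 1. Gene lengths differ between these groups, and no difference between them was tested. The ligand genes on either side of wg on chromosome 2L, singled out after their values were seen, had btl summits of moderate strength, 4 at Wnt4 with a highest fold enrichment of 3.43 (rank 2715) and 4 at Wnt6 with 2.88 (rank 4321). Wnt10, on the far side of Wnt6, had no summit in any list.

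Among genes that handle the ligand outside the cell, dally and dlp, which encode glypicans, and Notum, whose enzyme removes the lipid from Wnt ligands, had a highest-confidence region. At dally (chromosome 3L, 8827505 to 8891192) the strongest fold enrichments were 6.05 with btl (rank 334), 2.67 with trh (rank 621) and 5.71 in replicate 3 (rank 621). At dlp they were 4.79 (rank 953), 1.81 (rank 2573) and 5.57 (rank 704), and its highest-confidence region lay outside the gene body. At Notum they were 3.77 (rank 2097), 1.79 (rank 2632) and 3.79 (rank 2823).

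In the relay, the kinase genes sgg and gish held the most shared sites of these 41 genes. At sgg, the fly GSK3 (chromosome X, 2633952 to 2679553), the lists had 7 btl, 6 trh and 28 replicate 3 summits, with 4 highest-confidence regions and highest fold enrichments of 5.23 (rank 672), 2.92 (rank 380) and 7.17 (rank 170). At gish, which encodes a casein kinase (chromosome 3R, 16272452 to 16304768), they had 8, 5 and 23 summits with 5 highest-confidence regions, and the values were 5.67 (rank 458), 2.15 (rank 1627) and 8.14 (rank 69). All 8 relay genes on the list had a btl summit, and the members Axn and arm had none. Of all genes under 15 kb, the class of Axn and arm, 58.9% had one. For genes of 15 to 50 kb, the class of sgg and gish, it was 80.3%. The other relay genes on the list are under 15 kb, like Axn and arm, and each of them had a btl summit. The nearest btl summit to Axn lay 7570 bp outside it, past the limit. The contrast was not tested.

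Of the remaining relay genes with a highest-confidence region, Apc2, a destruction complex gene, had strongest fold enrichments of 5.18 with btl, 1.78 with trh and 5.56 in replicate 3. CkIalpha, a casein kinase gene, had 3.24, 1.86 and 4.12 in the same order, and Tnks, the tankyrase gene, had 4.16, 2.19 and 4.89. At Apc2 and CkIalpha the shared region lay outside the gene body, as did the 2 of ebd1 below. Among nuclear cofactors, osa, a chromatin remodelling subunit, had 3.00, 1.67 and 4.20, and nej, the CBP gene, had 2.88, 1.64 and 6.16. The earthbound genes ebd2 and ebd1 had 2.59, 1.99 and 3.07, and 2.31, 1.87 and 4.02. None of the 12 named genes had a trh summit as strong as that of fz, 3.21.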

How the data were processed

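The 4 deposited peak lists, 3 with summits, were used as the authors made them. Per the submitters' processing notes, which give no roles or order, the tools were CASAVA 1.8.2, Bowtie2 2.3.4.3 and 2.3.4.1, SAMtools 1.9 and 1.7, Picard, bedtools and MACS2 2.2.4, with the build dm6 (Release 6). The files have no headers, so columns were read from their layout. On that reading the authors' ratio column is the fold enrichment at each summit, the authors' -log10 column used here holds the q-value of each peak, and the deposited score column is a scale of the irreproducible discovery rate, or of the q-value in replicate 3. Scores were not used, and -log10 q served as an alternative measure of strength.

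Coordinates are counted from 1. Regions off the 6 arms were left out. Ranks and percentiles refer to the summits of a list on these arms, by fold enrichment. Overlap meant at least 1 shared bp. A gene end was a window of 500 bp around either bound, since the RefSeq table gives no strand. Motifs and sequences were not analysed here. The 41 other pathway genes were matched by symbol, 2 of them after ignoring letter case, and those named have a highest-confidence region, at most 12 by btl fold enrichment. Members and lists were chosen with earlier results of these data known. Counting was tested on simulated positions. Python 3.11.15, pandas 2.3.3, numpy 2.4.6, scipy 1.17.1 and matplotlib 3.10.9 were used. Alternatives were other windows, list lengths, overlap rules and rankings.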

Additional observations from a re-analysis of the deposited data

How the results depend on the processing

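Of 74 alternative values for counts and shares, 51 stayed within 1.5 times the count or within the interval of the share. With the gene body only, members in the trh list numbered 3 and other pathway genes there 10, and with a window of 2 kb the trh members again numbered 3. In the upper 50% by fold enrichment the trh members numbered 2 (also 2 by -log10 q), and member summits numbered 40 for btl, 9 for trh and 46 for replicate 3. With all lists as short as the trh list, member summits numbered 29 in btl and 10 in replicate 3, replicate 3 members numbered 5, and other pathway genes numbered 17 and 20. With 1 summit per region, replicate 3 had 80 member summits. A reciprocal overlap of 50% lowered the shared percentages of member regions to 6.15 (btl in trh), 23.5 (trh in btl), 55.4 (btl in replicate 3), 45.0 (replicate 3 in btl), 17.6 (trh in replicate 3) and 3.75 (replicate 3 in trh), and the members with a site in all 3 lists to 2. Summits within 250 bp gave 61.3 for replicate 3 in btl. Counting a shared site only inside the member, an alternative chosen after seeing the data, gave 3 members. Beyond the shorter lists and stricter rules themselves, the cause was not tested. Without replicate 3, members with a summit in any list numbered 6 of 8, since Axn and arm had summits there alone, and 5 members still shared a site between btl and trh. Leaving out replicate 1 or 2 was not run, because their lists hold them merged. No paired analysis was possible because the lists carry no values of single replicates. The percentile of a member's strongest summit changed by more than 5 points in 5 of 19 values when ranked by -log10 q, and in 6 of 19 with a window of 10 kb.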
